A study of Cicer arietinum with 12 samples.

Results

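Leaf transcript levels were compared between the chickpea (Cicer arietinum) genotypes ICC8261 and ICC283 when both were well watered. The comparison rests on the 6 libraries that the authors' deposited tables name as well-watered, 3 of ICC8261 and 3 of ICC283, of 12 libraries in the series. ICC8261 is described in the labels as drought tolerant and ICC283 as drought sensitive, with no mutation or transgene named. Soil was held at 80% of field capacity in well-watered pots and at 20% in drought-stressed pots of the same glasshouse experiment. The other 6 libraries are the same genotypes under drought, 3 each, and serve below as separate libraries in which each genotype difference was measured again. Leaves were taken at 1 stage, named after the shoot apical meristem, from 6 pots per genotype. Whether every library came from its own pot is not stated, and the p-values therefore describe only how far these libraries vary.

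A genotype difference measured without stress is a difference in basal expression, present before any water is withheld. In legumes such differences can involve gene copies that one accession transcribes and another does not. They can also involve regulators of flowering and the daily clock, the NAC and heat stress transcription factors of stress responses, and the enzymes that make and glycosylate flavonoids. The stated aim of the study concerns transcription factors and hormone signalling genes in the 2 genotypes.

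The well-watered libraries held 11121582, 11327669 and 11252842 reads on genes in ICC8261, against 10997908, 8958741 and 12192098 in ICC283. For 4 of the 12 libraries the treatment differed between the deposited sources, while the genotype was the same in both. Library 1 of well-watered ICC8261 and library 3 of well-watered ICC283 were deposited as drought libraries in the per-library count files. Treatment follows the tables here, and library numbers are those of the tables. The dehydrin gene DHN (LOC101504337), which codes for a protective protein of drying cells, had 7.13, 4.46 and 11.8 CPM in the well-watered ICC8261 libraries 1 to 3, against 9.03, 6.26 and 40 CPM in those of ICC283. In the drought libraries it had 300, 328 and 189 CPM in ICC8261, against 730, 743 and 340 CPM in ICC283. ICC283 library 3 also stood apart from its group over all tested genes. Its median absolute log2 difference from libraries 1 and 2 was 0.45 and 0.37, while libraries 1 and 2 differed by 0.25 and the ICC8261 pairs by 0.19 to 0.22. CPM is the read count scaled to library depth, with trimmed-mean (TMM) factors over all 12 libraries. Leaf identity was not tested, since the lists of nuclear photosynthesis genes and of other tissues had no member. The 10 plastid-encoded genes matched by symbol took 5.12% to 5.85% of reads in ICC8261, against 6.65% to 7.13% in ICC283. Plastid ribosomal RNA genes are not among them.

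Of 18592 genes tested, 2359 (12.7%) differed between well-watered ICC8261 and ICC283 at an adjusted p under 0.05 in edgeR's quasi-likelihood test. In ICC8261, 954 genes (5.13%) were higher and 1405 (7.56%) were lower. Most differences were small: the median absolute log2 fold change of the called genes was 0.94, and 419 of the higher and 640 of the lower genes differed at least 2-fold. At the far end, 26 genes were higher and 17 lower by at least 5 on the log2 scale. The groups did not overlap for 2280 of the called genes. Over all tested genes, 6039 (32.5%) had groups that did not overlap. The median log2 fold change of all genes was 0.00.

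The count depended on single libraries and on the treatment labels. Without ICC283 library 1, 2 or 3 the test called 906, 1072 or 5449 genes, and without ICC8261 library 1, 2 or 3 it called 1398, 699 or 1023. List counts below that come from another fit stand against that fit's own totals. Without ICC283 library 3, 2392 genes were higher and 3057 lower of 18951 tested. Of 18592 tested genes, DESeq2 called 1244 higher and 1908 lower, upper-quartile scaling 1140 and 1168, and a replicate block 1187 and 1540. Without the most abundant gene, 883 were higher and 1563 lower of 18576. When only the 8 libraries without this conflict were fitted, 4992 genes were called, and these included 90.5% of the 2359. With the count-file treatments 98 genes were called, 45 higher and 53 lower in ICC8261. Of the 47 called genes that the naming rule under processing picks, 10 were called with those labels as well. The other 37 had adjusted p-values between 0.056 and 0.93 in edgeR. NAC47 and the called neighbours of MAPK8, named below for other reasons, are outside these 47, and how their calls depend on libraries or labels is not given. The 10 are FTA2, ARF23, MAPK8 and the IDs LOC101494948, LOC105852755, LOC101496726, LOC101493008, LOC101497567, LOC101494062 and LOC101500041.

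**Figure D1:**
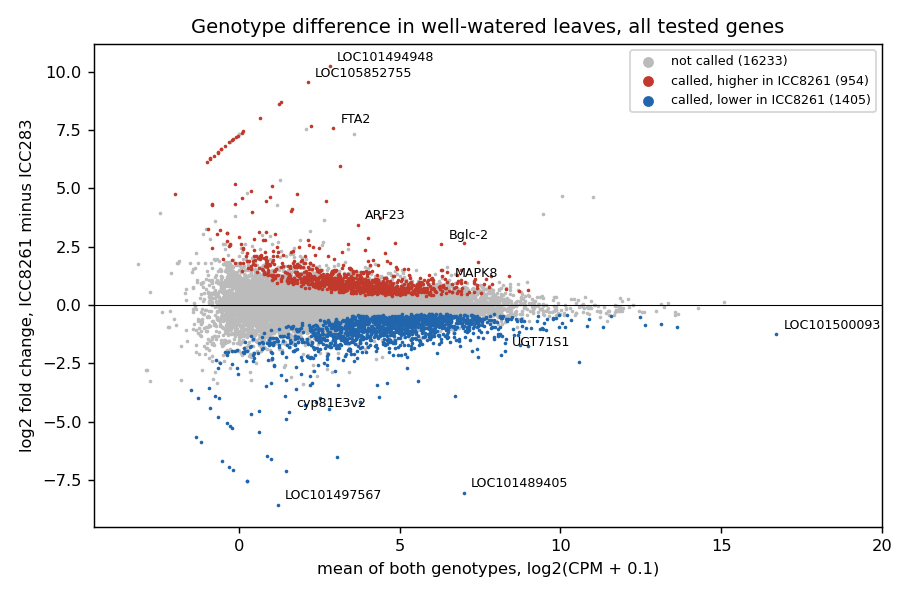
Each point is 1 of 18592 tested genes, with its mean level in well-watered leaves on the x axis, as log2(CPM + 0.1), and its log2 fold change, ICC8261 minus ICC283, on the y axis. The 954 genes called higher and 1405 called lower in ICC8261 are coloured, and diagonal streaks at the upper and lower left are genes with no read in one genotype.

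The largest differences were genes read in one genotype and scarcely or not at all in the other. FTA2 (LOC101496618) belongs to the FLOWERING LOCUS T family, whose members in other plants include the mobile flowering signal. It had 17.9, 13.5 and 13.7 CPM in ICC8261, against 0.103, 0 and 0.0906 CPM in ICC283. All 3 ICC8261 libraries were high, and ICC283 gave 2 reads in all against 548 in ICC8261. The ratio of the depth-scaled sums was 219 (95% interval 60.3 to 1812, covering counting error only). The fitted log2 fold change was 7.56 ± 0.50 (SE, n = 3 each, edgeR adjusted p = 6.7e-06). In the drought libraries FTA2 had 24.9, 15.3 and 17.3 CPM in ICC8261, against 0, 0.177 and 0 CPM in ICC283, so that all 6 ICC8261 libraries lay above all 6 of ICC283.

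ARF23 (LOC101505502), an auxin response factor of the family that binds and regulates auxin-responsive genes, had 21.8, 21.6 and 27.5 CPM in ICC8261, against 3.18, 1.74 and 1.63 CPM in ICC283. Every ICC8261 library was well above every ICC283 library. The log2 fold change was 3.43 ± 0.24 (edgeR adjusted p = 6.7e-06), and in the drought libraries it was 3.96. By edgeR ARF23 was the 1 gene called higher among 20 tested auxin genes (5%, against 5.13% of all tested genes), whose median log2 fold change was 0.07. DESeq2 and upper-quartile scaling each called 2 of them higher, the fit with a replicate block called 4, and the fits without ICC283 library 2 or 3 called 2. Bglc-2 (LOC101501940) had 143, 116 and 144 CPM in ICC8261, against 14.7, 20.5 and 31 CPM in ICC283. Its log2 fold change was 2.60 ± 0.32 (edgeR adjusted p = 8.2e-04) in well-watered leaves and 3.34 in the drought libraries. Its drought libraries had 40, 86.3 and 62.5 CPM in ICC8261 against 7.95, 4.17 and 6.6 CPM in ICC283, and the groups again did not overlap.

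Of the genes without a symbol, those with the largest differences upward are given by ID. LOC101494948, annotated as protein coding, had 15.7, 16 and 10.6 CPM in ICC8261 and no read in any well-watered ICC283 library. With a floor of 3 reads over the group, that is at least 138-fold higher in ICC8261. LOC105852755 had 7.49, 8.62 and 9.95 CPM in ICC8261 against 0 in ICC283, at least 85.7-fold higher, and had no read in the ICC283 drought libraries either. The long non-coding RNA LOC101496726 had 5.48, 4.54 and 4.34 CPM in ICC8261 against 0 in ICC283, at least 46.6-fold higher. LOC101493008, which the reference table does not annotate, had 3.84, 5.07 and 4.74 CPM in ICC8261 against 0 in ICC283, at least 45.0-fold higher. In each of these 4 genes the ICC283 libraries of either treatment gave 0 to 2 reads in all.

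Genes read mainly in ICC283 mirrored these. LOC101497567 had no read in any ICC8261 library, against 5.95, 4.41 and 2.9 CPM in well-watered ICC283, at least 53.4-fold lower in ICC8261. The long non-coding RNA LOC101494062 and the protein-coding LOC101500041 had no read in well-watered ICC8261, against 3.28, 1.27 and 1.99 CPM and 1.74, 3.59 and 1.18 CPM in ICC283. They were at least 27.1-fold and at least 25.5-fold lower in ICC8261. LOC101489405 was more abundant, with 0.64, 0.832 and 1.34 CPM in ICC8261 against 287, 246 and 232 CPM in ICC283. Its log2 fold change was -8.05 ± 1 (edgeR adjusted p = 0.0012), and no DESeq2 result is available for this gene. The drought libraries had 5.91, 37.1 and 1.65 CPM in ICC8261, against 561, 580 and 403 CPM in ICC283, and there the ICC8261 library with 37.1 CPM is one whose treatment differs between the sources.

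**Figure D2:**
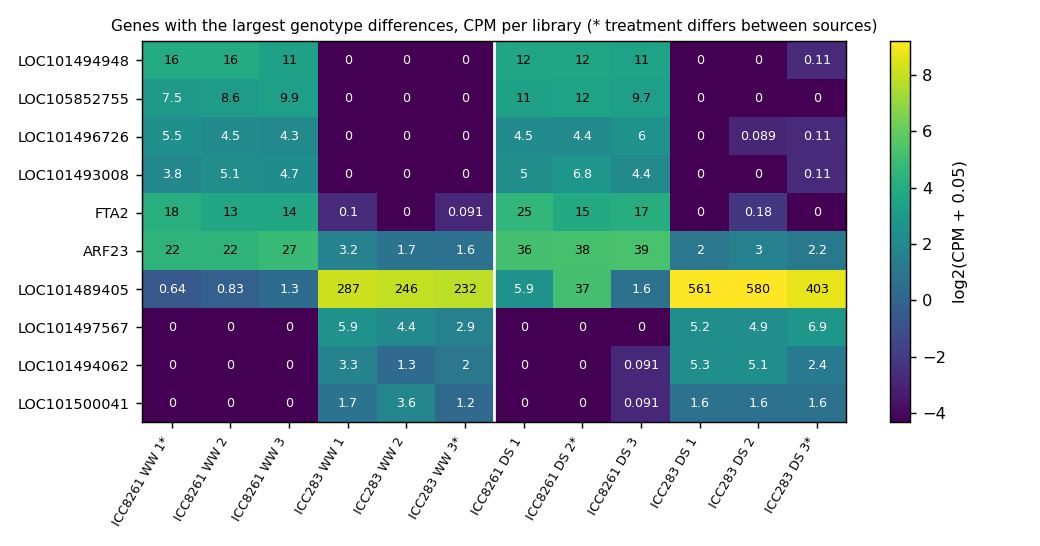
Rows are 10 genes named above, FTA2, ARF23 and those given by ID, and are not the 10 largest differences of all genes. Columns are the 12 libraries, ICC8261 left of ICC283 within each treatment. Colour is log2(CPM + 0.05), printed numbers are CPM, and asterisks mark libraries whose treatment differs between sources. LOC101494948 has 15.7, 16 and 10.6 CPM in well-watered ICC8261 and 0 in well-watered ICC283, and LOC101489405 has the opposite pattern.

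Across all called genes, 22 had no read in any well-watered ICC283 library and 8 had none in any well-watered ICC8261 library. Counting the drought libraries too, 13 and 4 genes had none in any library of that genotype. By annotated type, the called share was 12.1% of 339 long non-coding RNAs and 11% of 245 pseudogenes against 12.6% of 17461 protein-coding genes. At an absolute log2 fold change of 5 or more stood 11 long non-coding RNAs (3.24%), 4 pseudogenes (1.63%) and 21 protein-coding genes (0.120%). The types differ in number, so these shares are descriptions without a test. Reads lost to multiple alignment, 44.1% to 50% of counted lines in ICC8261 against 48.1% to 50.6% in ICC283, are absent from all of these counts, and their part in these values was not tested.

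Genes that neighbour each other in the reference order were both called higher in 71 of 932 cases (7.62%), against 5.19% of placed tested genes called higher. For lower calls it was 153 of 1326 cases (11.5%), against 7.38%. The longest run held 5 genes, all higher in ICC8261: LOC101505574, MAPK8, LOC101506115, LOC101506653 and LOC101506987. LOC101506653 averaged 318 CPM in ICC8261 against 137 CPM in ICC283, with a log2 fold change of 1.22 in well-watered leaves and 2.28 in drought leaves. LOC101506115 averaged 21 CPM in ICC8261 against 8 CPM in ICC283 (log2 fold change 1.39). Of 17957 placed tested genes, 35 were called and differed by 5 or more on the log2 scale, and 0 of these had a neighbour that did so in the same direction.

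NAC transcription factors bind DNA through a conserved domain and in other plants take part in stress responses, senescence and cell wall formation. Of 50 tested NAC genes, 0 were higher and 9 (18%) were lower in ICC8261, against 7.56% of all tested genes called lower. The median NAC log2 fold change was -0.49, against 0.00 over all genes, and 40 of 50 were below 0. At an unadjusted p under 0.05, 2 NAC genes were higher and 15 lower, against 5664 of 18592 tested genes in either direction. DESeq2 called 1 NAC gene higher and 10 lower, against 1244 and 1908 of all tested genes. NAC5 had 39.9, 36.5 and 40 CPM in ICC8261, against 120, 135 and 98.3 CPM in ICC283. The 3 ICC8261 libraries were tightly grouped below all of ICC283, a log2 fold change of -1.60 ± 0.23 (edgeR adjusted p = 0.0018). NAC43 (LOC101501929) had 7.86, 13.9 and 11.6 CPM in ICC8261, against 42, 41.7 and 16.4 CPM in ICC283 (-1.58 ± 0.34, edgeR adjusted p = 0.014). NAC05 (LOC101506350) had 5.48, 4.69 and 4.42 CPM in ICC8261, against 18.6, 13.1 and 9.87 CPM in ICC283 (-1.51 ± 0.28, edgeR adjusted p = 0.0065). NAC11 (LOC101504217) was lower too, with a log2 fold change of -1.34 ± 0.31. In 8 of the 9 called genes the lowest ICC283 library was number 3, the one that stands apart. The number called lower was 3, 3 and 15 without ICC283 libraries 1, 2 and 3, and 3, 4 and 3 without ICC8261 libraries 1, 2 and 3. Over all genes it was 623 of 18931, 735 of 18943 and 3057 of 18951 without ICC283 libraries 1, 2 and 3. Without ICC8261 libraries 1, 2 and 3 it was 923 of 18959, 441 of 18888 and 638 of 18880. NAC43 lost its call without ICC283 library 1 or 2, and NAC11 without ICC283 library 1 or any 1 of the ICC8261 libraries (highest edgeR adjusted p = 0.057 and 0.068).

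In the drought libraries 6 NAC genes were higher and 3 lower in ICC8261, against 6.19% of all tested genes called higher there and 4.1% called lower, with a median log2 fold change of 0.20. The difference between the well-watered and the drought genotype difference passed its own test for 5 NAC genes, against 2.58% of all tested genes. NAC5 differed by -1.36 (edgeR adjusted p = 0.047): under drought it had 138, 138 and 73.2 CPM in ICC8261, against 155, 151 and 106 CPM in ICC283. NAC05 kept its direction, with log2 fold changes of -1.51 well watered and -1.61 under drought. NAC47 was called in opposite directions, -0.94 ± 0.28 in well-watered leaves and 1.25 in drought leaves, and was chosen here after its values were seen.

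Heat stress factors activate or repress genes of protein protection. Of 19 tested, 0 were higher and 4 (21.1%) were lower in ICC8261, against 5.13% and 7.56% of all tested genes, with a median of -0.48. At an unadjusted p under 0.05, 0 were higher and 9 lower, against 5664 of 18592 tested genes in either direction. DESeq2 called 0 higher and 6 lower, against 1244 and 1908 of all tested genes. HSFA4C (LOC101515265) was weakly expressed, at 0.731, 0.756 and 0.474 CPM in ICC8261 against 3.49, 4.06 and 2.08 CPM in ICC283 (-2.27 ± 0.42, edgeR adjusted p = 0.0061). HSFB1A (LOC101494022), of a class that in other plants represses, had 2.92, 5.37 and 4.18 CPM in ICC8261, against 18.5, 15 and 7.88 CPM in ICC283 (-1.71 ± 0.33, edgeR adjusted p = 0.0065). Both groups were separate for these 2 genes, and ICC283 library 3 was again the lowest of its group. HSFA6B (LOC101499033) had 15.9, 10.7 and 15.7 CPM in ICC8261, against 64.4, 52.3 and 14.6 CPM in ICC283, so that its groups overlapped. HSFC1 (LOC101489265) had 8.77, 6.65 and 8.37 CPM in ICC8261, against 11.6, 18.8 and 18.2 CPM in ICC283. HSFA6B and HSFC1 each lost their call in 5 of the 6 fits that leave out a library, HSFA6B in all but that without ICC283 library 3 and HSFC1 in all but that without ICC283 library 1 (highest edgeR adjusted p = 0.15 and 0.16). The number called lower was 3, 2 and 10 without ICC283 libraries 1 to 3, and 2 in each fit without an ICC8261 library. Over all genes it was 623 of 18931, 735 of 18943 and 3057 of 18951 without ICC283 libraries 1 to 3. Without ICC8261 libraries 1 to 3 it was 923 of 18959, 441 of 18888 and 638 of 18880.

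Other stress-related factors were few by symbol. BZIP (LOC101514947), of the basic leucine zipper family that includes regulators of abscisic acid responses, had 134, 103 and 103 CPM in ICC8261, against 318, 247 and 162 CPM in ICC283 (-1.10 ± 0.22, edgeR adjusted p = 0.0089). The same direction was called in the drought libraries (-0.95). Its call was lost without ICC8261 library 2 (edgeR adjusted p = 0.050). CARERF1 (LOC101492500), an ethylene response factor by symbol, had 46.2, 56.8 and 25.3 CPM in ICC8261, against 107, 148 and 55.6 CPM in ICC283, and its call (edgeR adjusted p = 0.045) was lost without any 1 library except ICC283 library 3. CaWRKY50 and WRKY40 had log2 fold changes of -1.43 ± 0.49 and -1.39 ± 0.45 and were not called by edgeR (adjusted p = 0.077 and 0.065). Both were called lower by DESeq2 (adjusted p = 0.014 and 0.012), with a replicate block, in the 8 agreed libraries and without ICC283 library 3. CAP2 and CAHDZ12 had 0.47 ± 0.24 and -0.53 ± 0.51 and were not called by edgeR.

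**Figure D3:**
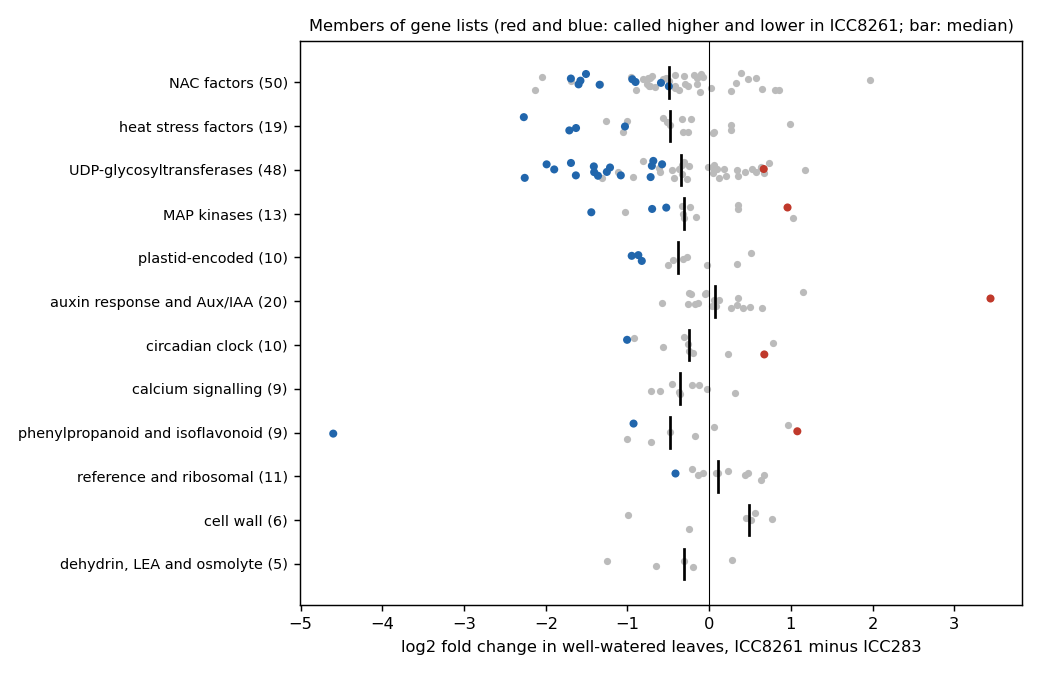
Each point is a tested member of a gene list, placed by its log2 fold change in well-watered leaves, ICC8261 minus ICC283; red and blue points are called higher and lower in ICC8261, grey points are not called, bars are list medians, and numbers in brackets are members tested. NAC factors, with 9 blue points and a median of -0.49, and UDP-glycosyltransferases, with 15 blue points and 1 red, lie mostly left of 0.

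UDP-glycosyltransferases (UGTs) attach sugars to small molecules such as flavonoids and hormones. Of 48 tested, 1 was higher and 15 (31.2%) were lower in ICC8261, against 5.13% and 7.56% of all tested genes, and the median was -0.35. UGT71S1 was the most abundant named one, with 136, 97.2 and 140 CPM in ICC8261, against 619, 429 and 435 CPM in ICC283. The lowest ICC283 library lay far above the highest of ICC8261, a log2 fold change of -1.99 ± 0.19 (edgeR adjusted p = 7.6e-05). UGT73C15 had 20.7, 23.3 and 25.7 CPM in ICC8261, against 86.5, 77.3 and 61.6 CPM in ICC283 (-1.69 ± 0.17, edgeR adjusted p = 1.4e-04). UGT75L8 had 14.4, 8.32 and 10.7 CPM in ICC8261, against 33.7, 31.8 and 37.8 CPM in ICC283 (-1.63 ± 0.20, edgeR adjusted p = 6.1e-04). UGT72X1, UGT89B5 and UGT83G3 were lower too, with log2 fold changes of -2.26 ± 0.41, -1.41 ± 0.22 and -1.90 ± 0.52. UGT83G3 rested on 31.2 CPM in ICC283 library 1 beside 12.1 and 8.88 CPM in the other two, and lost its call without any 1 library except ICC283 library 3 (highest edgeR adjusted p = 0.15).

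The 1 higher glycosyltransferase was UGT78G2, with 65.3, 61.3 and 69.2 CPM in ICC8261 against 35.8, 38.7 and 48.6 CPM in ICC283 (0.67 ± 0.14, edgeR adjusted p = 0.0098). In 13 of the 16 called UGT genes ICC283 library 1 was the highest of its group. The number called lower was 6, 11 and 16 without ICC283 libraries 1, 2 and 3, and 9, 6 and 8 without ICC8261 libraries 1, 2 and 3. Over all genes it was 623 of 18931, 735 of 18943 and 3057 of 18951 without ICC283 libraries 1, 2 and 3. Without ICC8261 libraries 1, 2 and 3 it was 923 of 18959, 441 of 18888 and 638 of 18880. In the drought libraries 6 UGT genes were higher and 2 lower in ICC8261, against 6.19% and 4.1% of all tested genes, with a median of 0.21. UGT73C15 had 32.3, 27.1 and 31 CPM in ICC8261 drought leaves against 29.5, 23 and 33.8 CPM in those of ICC283, and its 2 genotype differences differed by -1.76 (edgeR adjusted p = 0.0070). UGT71S1 was called lower under both treatments, and its difference between them was -1.14 (edgeR adjusted p = 0.042).

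Chalcone synthase commits phenylpropanoids to flavonoids, and cytochromes P450 of the CYP81E family hydroxylate isoflavones in legumes. CHS (LOC101503349) had 40, 47.4 and 38.1 CPM in ICC8261, against 29.9, 14.6 and 14.9 CPM in ICC283, a log2 fold change of 1.08 ± 0.26 (edgeR adjusted p = 0.022). It was also called in the drought libraries (1.95), with all 6 ICC8261 libraries above all 6 of ICC283. Its call in well-watered leaves was lost without ICC283 library 2 and without ICC8261 library 1 or 2, with a highest edgeR adjusted p of 0.086. CYP81E5 (LOC101503563) had 43.3, 28.7 and 37 CPM in ICC8261, against 90.6, 58.7 and 57.9 CPM in ICC283 (-0.93 ± 0.24, edgeR adjusted p = 0.025), and was called lower under drought as well. That call was lost without ICC283 library 1 and without ICC8261 library 2 or 3. The weakly expressed cyp81E3v2 (LOC101502156) had 0.0914, 0.227 and 0.316 CPM in ICC8261, against 9.95, 4.64 and 1.99 CPM in ICC283 (-4.60 ± 0.82, edgeR adjusted p = 0.0051). Of 9 members tested in this list, 1 was higher and 2 lower, against 5.13% and 7.56% of all tested genes. CHS was also not called in the fits of only the 6 contrast libraries and of the 8 agreed libraries. The isoflavone synthase symbol CYP93C3 had -1 ± 0.41, PAL -0.18 ± 0.25 and CYP73 0.06 ± 0.23, none of them called. Reads that align to several places are absent from these counts. What near-identical P450 or UGT copies lost in this way was not tested, so their separate values are uncertain.

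Of 10 clock genes, edgeR called PRR37B higher and LHY lower, against 5.13% and 7.56% of all tested genes. DESeq2 and upper-quartile scaling each called 2 higher and 1 lower, and the fit without ICC283 library 3 called 1 higher and 3 lower. LHY (LOC101500635), a MYB-like repressor that in other plants peaks at dawn, had 71.4, 90.8 and 85.7 CPM in ICC8261, against 184, 181 and 133 CPM in ICC283 (-1 ± 0.22, edgeR adjusted p = 0.013). PRR37B (LOC101512945), a pseudo-response regulator, had 67.6, 66.3 and 76.3 CPM in ICC8261, against 48.2, 42.8 and 40.8 CPM in ICC283 (0.67 ± 0.14, edgeR adjusted p = 0.0091). The related PRR37A had 0.78 ± 0.25 and just missed the threshold (edgeR adjusted p = 0.056). GI, TOC1A and TOC1B had -0.25 ± 0.18, -0.30 ± 0.27 and -0.19 ± 0.25. The hour of sampling is not given in the labels, and its part in these values was not tested.

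Besides FTA2, the flowering list held FD, the leucine zipper partner of FLOWERING LOCUS T, with 10.3, 15.5 and 15.6 CPM in ICC8261 against 8.31, 8.12 and 9.96 CPM in ICC283 (0.65 ± 0.19, edgeR adjusted p = 0.041). Its call was lost without ICC283 library 1 or 2 and without ICC8261 library 2 or 3 (highest edgeR adjusted p = 0.15). The remaining members were not called by edgeR or DESeq2. FTA1 had 2.92, 1.51 and 1.18 CPM in ICC8261, against 4.1, 3.71 and 3.62 CPM in ICC283 (-1.04 ± 0.41), and was called lower in the 8 agreed libraries and with a replicate block. FTA3 had -2.45 ± 1.08 and FT-B 0.09 ± 0.71.

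**Figure D4:**
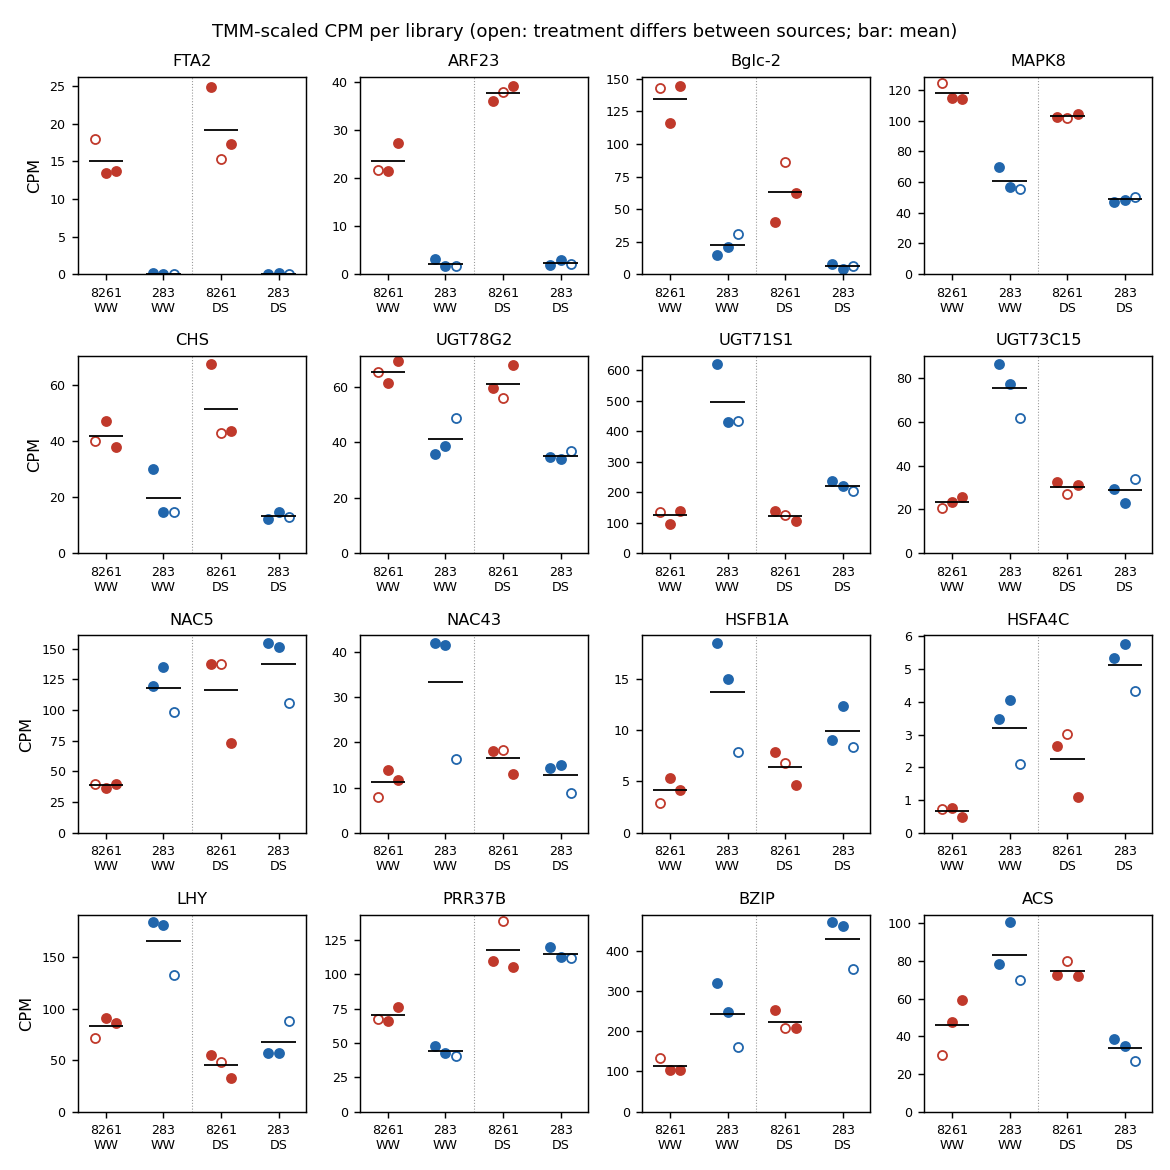
Panels show TMM-scaled CPM per library of 16 named genes, with ICC8261 in red left of ICC283 in blue, well-watered (WW) left and drought-stressed (DS) right of the dotted line; bars are means and open circles are libraries whose treatment differs between sources. FTA2 and ARF23 are higher in every ICC8261 library, while UGT73C15 has 20.7, 23.3 and 25.7 CPM in well-watered ICC8261 against 86.5, 77.3 and 61.6 CPM in well-watered ICC283.

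MAP kinases pass signals by phosphorylation. MAPK8 (LOC101505041) had 124, 115 and 114 CPM in ICC8261, against 69.5, 56.9 and 55.3 CPM in ICC283 (0.96 ± 0.12, edgeR adjusted p = 7.9e-04). In the drought libraries it had 102, 102 and 104 CPM in ICC8261, against 47.3, 48.6 and 50.2 CPM in ICC283, a log2 fold change of 1.08. It was 1 of 13 tested MAP kinase genes called higher (5.13% of all tested genes), and the lower calls stand against 7.56% of all tested genes: MPK1, MAPK11 and MAPK6 were lower, with log2 fold changes of -1.44 ± 0.41, -0.70 ± 0.16 and -0.53 ± 0.14. In the fit of only the 6 contrast libraries 0 were lower. The 3 lower calls were 0 without ICC283 library 1 or 2 and without ICC8261 library 1 or 2, 1 without ICC8261 library 3, and 6 without ICC283 library 3. Of 9 calcium signalling genes 0 were called by edgeR or DESeq2, 4 were lower at an unadjusted p under 0.05, and 4 were called lower without ICC283 library 3. Over all tested genes edgeR called 12.7%, and 5664 of 18592 had an unadjusted p under 0.05. Without ICC283 library 1, 2 or 3, 623 of 18931, 735 of 18943 or 3057 of 18951 were called lower. Without ICC8261 library 1, 2 or 3 it was 923 of 18959, 441 of 18888 or 638 of 18880. The log2 fold changes of the calcium genes lay between -0.71 and 0.32.

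ACS (LOC101514377), the ethylene precursor synthase, had 30.3, 47.6 and 59.5 CPM in ICC8261, against 78.5, 101 and 69.9 CPM in ICC283 (-0.86 ± 0.22, edgeR adjusted p = 0.026). The groups did not overlap. Under drought the order was the opposite, at 72.5, 80 and 72.2 CPM in ICC8261 against 38.6, 35.1 and 27 CPM in ICC283 (1.16, edgeR adjusted p = 0.0079). The 2 genotype differences differed by -2.01 (edgeR adjusted p = 0.013). The well-watered call was lost without ICC283 library 1 or 2 and without ICC8261 library 1 or 2 (highest edgeR adjusted p = 0.086). ACO1, an ACC oxidase, which makes ethylene from that precursor, had -0.75 ± 0.28, and aco and HP3 had 0.10 ± 0.19 and -0.18 ± 0.24, none called by edgeR. Without ICC283 library 2 ACO1 was called lower (-1.05, edgeR adjusted p = 0.033).

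Among genes of dehydration protection, 0 of 5 were called by edgeR or DESeq2, with 1 lower at an unadjusted p under 0.05. With 12.7% of all tested genes called by edgeR, a count of 0 among 5 does not set this list apart. DHN had -1.25 ± 0.64, CAPLEA-1 -0.30 ± 1.18, CapLEA-2 -0.20 ± 0.61, P5CS (proline synthesis) 0.28 ± 0.62 and CAGOLS1 (galactinol synthesis) -0.65 ± 0.26. The late embryogenesis abundant genes were at most 0.815 CPM in any well-watered library, with CAPLEA-1 at 0.366, 0 and 0.395 CPM in ICC8261 against 0.103, 0.348 and 0.453 CPM in ICC283. Their levels in drought libraries reached 43.9 CPM. At these well-watered levels a genotype difference was not detectable.

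Metallothioneins bind metals through cysteines and were abundant. MT-1 (LOC101514174) had 991, 584 and 745 CPM in ICC8261, against 1735, 1371 and 1308 CPM in ICC283 (-0.93 ± 0.21, edgeR adjusted p = 0.016). MT-2 had 198, 152 and 162 CPM in ICC8261, against 396, 305 and 301 CPM in ICC283 (-0.97 ± 0.17, edgeR adjusted p = 0.0043). MT-1 lost its call without ICC283 library 1 and without ICC8261 library 2 or 3 (highest edgeR adjusted p = 0.077). The ferritins FER1, FER2 and FER3 had 0.29 ± 0.34, 1.23 ± 0.72 and -0.48 ± 0.59 and were not called. Of cell wall genes, 0 of 6 were called by edgeR or DESeq2, with 1 higher at an unadjusted p under 0.05. With 12.7% of all tested genes called by edgeR, that count does not set the list apart either. CA-EXPA2, CA-EXPA3, CA-EXPA4 and EXPA1, which are expansins that loosen walls, lay between -0.25 and 0.77. Without ICC283 library 3, CA-EXPA2 and CA-EXPA4 were called higher (1.27 and 1.60). XTH1, a xyloglucan endotransglucosylase, and pme1, a pectin methylesterase, had -0.99 ± 0.79 and 0.45 ± 0.16. XTH1 varied within both groups, with 34.2, 64.3 and 59.9 CPM in ICC8261 against 23.3, 103 and 189 CPM in ICC283.

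GRP1 (LOC101505079), a glycine-rich protein gene, had low levels of 1.83, 1.36 and 2.29 CPM in ICC8261, against 0.615, 0.232 and 0.815 CPM in ICC283 (1.66 ± 0.50, edgeR adjusted p = 0.045). In the drought libraries the order was the opposite, at 0.106, 0.5 and 0.274 CPM in ICC8261 against 1.81, 2.75 and 2.16 CPM in ICC283. The 2 genotype differences differed by 4.50 (edgeR adjusted p = 0.014). Its well-watered call was lost without any 1 library except ICC283 library 3 (highest edgeR adjusted p = 0.14). Of the others, GRP2, LTP and LTP2 had 0.37 ± 0.74, 0.17 ± 0.38 and 0.06 ± 0.13. Without ICC283 library 3, GRP2 and LTP were called higher (2.30 and 0.89). The protease inhibitor kpi1 had 16.8, 11.6 and 13.2 CPM in ICC8261, against 1.95, 3.25 and 10.8 CPM in ICC283 (1.35 ± 0.44), and was not called in edgeR (adjusted p = 0.064) but was in DESeq2 (adjusted p = 0.020). Without ICC283 library 3, kpi1 and tpi3 were called higher (2.39 and 2.78). The genes tpi3, CAAP1, lrr and CHITINASE had 1.01 ± 0.78, -0.69 ± 0.64, 0.14 ± 0.44 and -0.16 ± 0.45.

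Of 10 plastid-encoded genes, 3 were lower in ICC8261, against 7.56% of all tested genes, and DESeq2 and the fit without the most abundant gene each called 5 lower. The 3 were ndhA (NADH dehydrogenase-like complex) at -0.95 ± 0.17, clpP (protease) at -0.87 ± 0.16 and atpF (ATP synthase) at -0.82 ± 0.19. The clpP gene had 4402, 4397 and 4642 CPM in ICC8261, against 8213, 8333 and 7975 CPM in ICC283 (edgeR adjusted p = 0.0052). The atpF call was lost without ICC283 library 1 or 2 and without ICC8261 library 2 (highest edgeR adjusted p = 0.066). The most abundant gene of all, LOC101500093, took 7.65%, 6.46% and 6.34% of reads in ICC8261, against 16.6%, 12.9% and 12.2% in ICC283 (-1.27 ± 0.18, edgeR adjusted p = 0.0015). Of 11 reference and ribosomal genes, 0 were called higher and 1 lower, against 5.13% and 7.56% of all tested genes. The 1 was GAPDH, at 897, 864 and 812 CPM in ICC8261 against 1042, 1142 and 1259 CPM in ICC283 (-0.42 ± 0.12, edgeR adjusted p = 0.034). That call was lost without ICC283 library 2 and without ICC8261 library 2 or 3 (highest edgeR adjusted p = 0.12). The median log2 fold change of these 11 genes was 0.11. Without ICC283 library 3 edgeR called 5 of them higher and 1 lower, against 2392 and 3057 of 18951 tested genes.

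Measured again in the drought libraries, which share no library with the well-watered contrast, 1913 genes (10.3%) differed between ICC8261 and ICC283. Of the genes higher in well-watered ICC8261, 221 were called higher in drought too, which is 23.2% of the well-watered and 19.2% of the drought calls. Of all tested genes 6.19% were called higher in drought. Of the lower genes, 300 were called lower in drought too, 21.4% of the well-watered and 39.3% of the drought calls, against 4.1% of all tested genes. The sign was the same for 72.2% of the higher and 76.7% of the lower genes. The share with the same sign over all tested genes is not given here. The median log2 fold change of the higher genes was 0.94 well watered and 0.26 under drought, and that of the lower genes was -0.94 and -0.33. The well-watered values are those of genes called in them, and the drought values are not chosen by their own call. All 6 ICC8261 libraries lay above all 6 of ICC283 for 227 of the higher genes, and below for 309 of the lower ones, while 1.8% and 2.14% of all tested genes showed those orders. That order includes the well-watered libraries that chose these genes, so an excess over 1.8% and 2.14% follows in part from the choice.

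**Figure D5:**
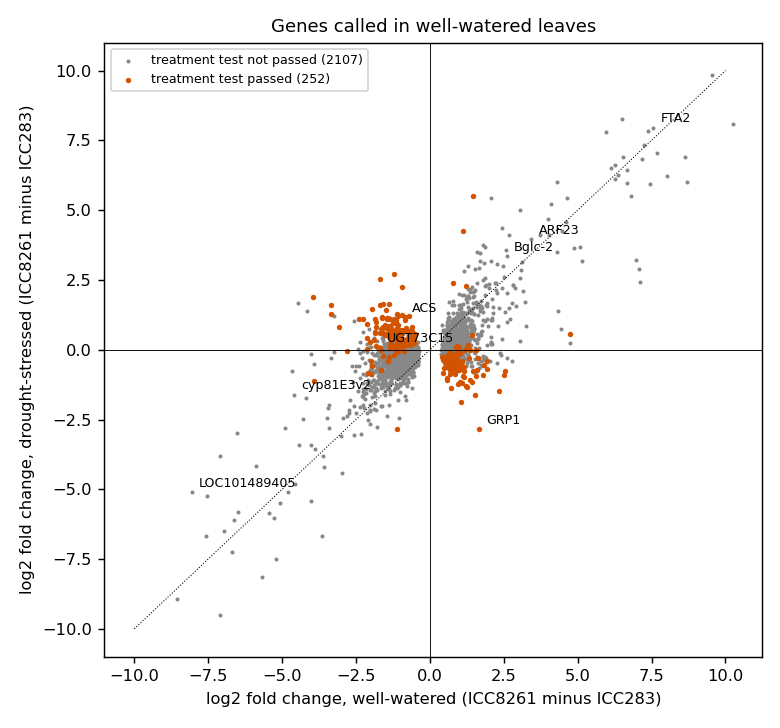
Each point is 1 of the 2359 genes called in well-watered leaves, with its log2 fold change (ICC8261 minus ICC283) in well-watered libraries on the x axis and in drought libraries on the y axis; orange points passed the test of the difference between the 2, and the dotted line marks equality. FTA2, ARF23 and Bglc-2 lie near the dotted line, and ACS and GRP1 have opposite signs under the 2 treatments.

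The difference between the well-watered and the drought genotype difference was itself tested, and 479 of 18592 genes (2.58%) passed. Among the 2359 genes called in well-watered leaves 252 (10.7%) passed, of which 142 were called lower and 110 higher in well-watered ICC8261. The test contains the same well-watered difference that chose these genes, so a share above 2.58% follows in part from that choice. In 53 genes the genotype difference was called in opposite directions under the 2 treatments. Leaving out ICC283 well-watered library 1, 2 or 3 changed the count of 479 to 279, 57 or 2298, and leaving out that of ICC8261 changed it to 223, 65 or 85. Leaving out ICC283 drought library 1, 2 or 3 changed it to 55, 112 or 915, and that of ICC8261 to 79, 192 or 274. For the other called genes a difference particular to well-watered leaves was not shown.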

How the data were processed

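RNA of chickpea leaves was sequenced as paired reads on an Illumina HiSeq 1000, per the labels' protocols. Per library, the authors deposited a file of counts per gene, and per genotype they deposited tables that hold, per the file headers, normalized counts, entered here as a signal, with log2 fold changes and p-values of their own, which were not used. The submitters' processing notes name HTSeq, TopHat2 2.1.1, Trimmomatic, edgeR, DESeq2 and Cufflinks 2.0.2. The genome build is not given in the sources used here, nor are annotation and strandedness.

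Each normalized column, divided by its smallest positive value, gave whole reads (100% of values within 0.02), equal at all 27234 genes to 1 count file. All 12 libraries were refitted together in edgeR 4.0.16 (R 4.3.3): filterByExpr (minimum count 10, minimum total 15), TMM scaling, 4 group means, robust quasi-likelihood, Benjamini-Hochberg adjustment, calls at 0.05. The SE is the absolute log2 fold change over the square root of F. DESeq2 1.42.0 was an alternative. The members and the 24 lists were chosen with earlier results of these data known, and 3 lists had no tested member.

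Named genes have a symbol, an adjusted p under 0.05, at least 2 CPM in the higher genotype and separate groups (10 largest each way), or are the 4 largest each way by ID, up to 4 called members per list and direction, every member of lists of 6 or fewer, or the most abundant gene. Symbols come from a RefSeq table (assembly Cicar.CDCFrontier_v2.0) that matched 24445 of 27234 features (89.8%). The script was tested on simulated data.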

Additional observations from a re-analysis of the deposited data

Results flagged for a closer look

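For 6 named genes the genotype difference, ICC8261 minus ICC283, differed between well-watered and drought-stressed leaves by edgeR's interaction test, so they are given as values. GRP1 had a difference between treatments of 4.50 on the log2 scale, with opposite directions under the 2 treatments. ACS had -2.01, also with opposite directions. UGT73C15 had -1.76, with a genotype difference in well-watered leaves and a log2 fold change of 0.07 under drought. NAC5 had -1.36 and UGT71S1 had -1.14, with UGT71S1 called lower in ICC8261 under both treatments. The plastid gene atpF had -1.12. Each rests on 3 libraries per group, of which 1 in each of the 4 groups has a treatment that differs between the sources.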

How the results depend on the processing

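The well-watered count of 2359 genes was 2376 with DESeq2 size factors, 2308 with upper-quartile scaling (median shift of all genes 0.055; 49.4% called higher against 40.4%), 2152 without the filter, 2446 without the most abundant gene and 3152 in DESeq2. It was 1167 with only the 6 libraries of the contrast, 98 with the count-file treatments, 28 with both (chosen after the data were seen), and 4992 in the 8 agreed libraries. Leaving out 1 library gave 699 to 5449 genes. The drought count of 1913 was 113 with the count-file treatments, 3 with those and only 6 libraries, 3551 in the 8 agreed libraries and 628 to 2418 with 1 library left out. The count of 479 for the difference of differences was 1281 in DESeq2, 0 with the count-file treatments (edgeR; 634 at an unadjusted p under 0.05), 2355 in the 8 agreed libraries and 55 to 2298 with 1 library left out. HSFC1 reversed to 0.19 with the count-file treatments, also in only 6 libraries; the cause was not tested. Of the 47 calls picked by the naming rule, without NAC47 and the neighbours of MAPK8, 29 held in all 6 fits that leave out 1 library. In the 8 libraries 44 held (not UGT83G3, HSFC1 and CHS), and 10 with the count-file treatments. With only the 6 libraries of the contrast 37 held, and HSFA6B, MPK1, CARERF1, ACS, MAPK11, MAPK6, GAPDH, FD, CHS and GRP1 lost theirs. CARERF1, HSFC1 and GAPDH lost theirs under upper-quartile scaling, and UGT83G3, HSFA6B, MPK1, CARERF1, FD and GRP1 without the filter. Whether replicate numbers pair libraries is not settled. Deviations of same-numbered libraries correlated between -0.12 and 0.43, and differently numbered libraries were not compared. Under a fit with a replicate block, 2727 well-watered genes and 615 for the difference of differences were called, and GRP1 lost its call. At fewer than 2 CPM, counting error limits what can be seen.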

Other observations

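The plastid ribosomal RNA genes CiarC_r001 and CiarC_r002 varied widely between libraries of one genotype. CiarC_r001 had 5266, 318 and 529 CPM in well-watered ICC8261, against 70.4, 46.3 and 123 CPM in well-watered ICC283, a log2 fold change of 4.67 that edgeR did not call (adjusted p = 0.096). CiarC_r002 had 3354, 233 and 375 CPM in ICC8261, against 98.1, 56.2 and 115 CPM in ICC283. In drought libraries CiarC_r001 had 5616, 82.2 and 166 CPM in ICC8261, against 331, 83.9 and 640 CPM in ICC283. LOC105852854, chosen with them after their values were seen, was likewise highest in ICC8261 library 1, at 9561, 850 and 1605 CPM in well-watered ICC8261 against 81.8, 102 and 303 CPM in well-watered ICC283.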
